A study of Homo sapiens with 12 samples.

Results

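Integrins and laminins are the receptors and the sheet-forming matrix proteins through which a fibroblast holds on to its surroundings, and their subunit genes are described here in irradiated, senescent cells of IMR90, an established human lung fibroblast line. The members were chosen by symbol: listed genes named as an integrin alpha subunit, an integrin beta subunit or a laminin chain. This gave 36 of the 16383 listed genes, namely 18 integrin alpha, 8 integrin beta and 10 laminin genes. Of these, 25 had a mean of at least 10 normalized counts over the 12 libraries and were tested (12 alpha, 5 beta and 8 laminin), and 11 were below that level. RNA selected by its poly(A) tail was sequenced from 4 groups of 3 samples, all of wild-type genotype. Proliferating cells (Prolif) had no treatment. The other groups had received 20 Gy of ionizing radiation within 10 min and were collected 11 days later. They were given DMSO (Sen_DMSO), palbociclib (Sen_Palbo) or ruxolitinib (Sen_Ruxo), with either inhibitor at 2 µM on days 4, 6, 8 and 10. Palbociclib inhibits the cyclin-dependent kinases CDK4 and CDK6, and ruxolitinib inhibits the Janus kinases JAK1 and JAK2. The labels do not say that the replicates were separate cultures, so p-values measure only the spread between these samples, which may be technical. The study used a single cell line, and the proliferating cells were neither irradiated nor given DMSO per the labels.

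An integrin is a pair of one alpha and one beta subunit that spans the cell membrane, binds matrix outside and connects to the actin cytoskeleton through talin and other adaptor proteins inside. The alpha subunit largely sets the ligand: collagen, laminin, or proteins that carry the arginine-glycine-aspartate motif, such as fibronectin and vitronectin. Laminins are trimers of one alpha, one beta and one gamma chain that assemble into basement membranes, and the alpha chain carries the main binding sites for integrins. Fibroblasts in culture are known to adhere chiefly to collagen and fibronectin, and senescent cells are known for a large, flat shape and a changed secretion of matrix.

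Over the listed genes, between 14106799 and 21762412 reads per library were recovered from the normalized counts. All 11 fibroblast markers had a mean of at least 10 in these libraries, with summed levels of 1032043 to 1042989 normalized counts in the proliferating group, 487663 to 499805 in the DMSO group, 755447 to 770276 in the palbociclib group and 596453 to 600882 in the ruxolitinib group. The defining endothelial gene CDH5 was at 2.71 or below in every library, the leukocyte gene PTPRC at 9.90 or below, the T cell gene CD3E at 2.71 or below, and the platelet genes PPBP and GP9 at 0. Of the other marker lists, 3 of 7 endothelial genes, 2 of 8 epithelial, 2 of 6 leukocyte, 1 of 4 platelet, 4 of 5 smooth muscle and pericyte, and 1 of 4 Schwann cell genes had a mean of at least 10. The endothelial sum, 1719 to 1963 in the proliferating group, 2406 to 2573 in the DMSO group, 3505 to 4381 in the palbociclib group and 2267 to 2273 in the ruxolitinib group, was nearly all TEK. The smooth muscle and pericyte sum was 19419 to 20410 in the proliferating group, 6936 to 7614 in the DMSO group, 16041 to 18219 in the palbociclib group and 6370 to 6549 in the ruxolitinib group. The leukocyte sum was 9.98 to 17.1 in the proliferating group, 49.7 to 60.4 in the DMSO group, 23.2 to 33.9 in the palbociclib group and 45.9 to 51.4 in the ruxolitinib group, mostly CD14 and CSF1R. The platelet sum, nearly all GP1BA, was 16.6 to 22.8, 30.8 to 39.6, 40.9 to 51.4 and 34.2 to 44.2 in the same order. The epithelial sum was at most 145 in the proliferating group and 268 to 316, 381 to 505 and 299 to 352 in the others, and the Schwann cell sum was 2.22 to 6.23, 20.1 to 24.3, 9.85 to 15.1 and 21.7 to 35.1. The part of these marker differences in the results was not tested.

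Libraries A126 (proliferating) and A120 (palbociclib) stood apart within their groups. In them, the 2131 genes with transcripts over 6000 bases lay lower than their group's mean, by a median of -0.118 and -0.143 on the log2 scale, and the 1447 genes under 1500 bases lay higher, by 0.121 and 0.158. Integrin and laminin transcripts are long: the 25 tested members had a median of 5941 bases, against 3405 over all tested genes. In A126, 17 of the 25 members lay below their group's mean, and in A120, 23 of 25 did. Library A119, also of the palbociclib group, moved the other way, with medians of 0.119 for long and -0.134 for short transcripts. Members whose call changed without A120 and A126 are named with the counts of each comparison. Values per library are listed below in the order A125, A126 and A127 for proliferating cells, A116 to A118 for DMSO, A119 to A121 for palbociclib and A122 to A124 for ruxolitinib. Below, "with DMSO" stands for irradiated cells given DMSO, "after irradiation" for these cells against proliferating ones, which had neither, ± after a mean is the SD of 3 libraries, and ± after a log2 fold change is its standard error.

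The DNA just before the start of 5 members that the results turn on is shown here, because 2 of them are neighbours that moved in opposite directions after irradiation (ITGA1 and ITGA2), LAMA3 had the largest fold change of the tested members after irradiation, and the remaining 2 were lower with both inhibitors (LAMA4 and ITGA8). Each is 250 bases, read 5′ to 3′ on the gene's strand, from RefSeq's annotation of GRCh38.p14. Capitals mark matches to a searched motif. The windows lie at chr5:52787666-52787915 and chr5:52989102-52989351 on the plus strand, chr18:23872770-23873019 on the plus strand, chr6:112254568-112254817 on the minus strand and chr10:15719923-15720172 on the minus strand. The ITGA2, LAMA3 and LAMA4 windows precede a start that lies inside the gene as GENCODE annotates it. Those of LAMA3 and LAMA4 lie wholly within the gene, and that of ITGA2 only at its last bases.
ITGA1: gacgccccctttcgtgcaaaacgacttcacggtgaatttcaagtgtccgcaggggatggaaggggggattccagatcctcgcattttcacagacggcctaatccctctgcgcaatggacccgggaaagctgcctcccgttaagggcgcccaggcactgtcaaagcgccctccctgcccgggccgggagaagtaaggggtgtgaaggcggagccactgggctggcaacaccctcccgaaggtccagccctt
ITGA2: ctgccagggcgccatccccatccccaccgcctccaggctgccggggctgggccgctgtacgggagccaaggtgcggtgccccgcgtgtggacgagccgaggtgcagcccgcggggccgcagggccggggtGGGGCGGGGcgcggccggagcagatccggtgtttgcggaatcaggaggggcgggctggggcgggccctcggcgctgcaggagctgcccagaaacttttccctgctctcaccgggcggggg
LAMA3: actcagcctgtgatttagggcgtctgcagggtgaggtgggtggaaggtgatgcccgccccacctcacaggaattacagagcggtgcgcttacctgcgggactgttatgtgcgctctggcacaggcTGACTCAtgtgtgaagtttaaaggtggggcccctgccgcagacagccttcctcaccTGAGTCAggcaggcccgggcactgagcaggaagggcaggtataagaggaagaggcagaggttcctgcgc
LAMA4: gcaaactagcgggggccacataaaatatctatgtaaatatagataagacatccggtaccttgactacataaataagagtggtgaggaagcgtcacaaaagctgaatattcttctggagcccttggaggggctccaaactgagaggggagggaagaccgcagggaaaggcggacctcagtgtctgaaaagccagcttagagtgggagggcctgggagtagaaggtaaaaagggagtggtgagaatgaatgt
ITGA8: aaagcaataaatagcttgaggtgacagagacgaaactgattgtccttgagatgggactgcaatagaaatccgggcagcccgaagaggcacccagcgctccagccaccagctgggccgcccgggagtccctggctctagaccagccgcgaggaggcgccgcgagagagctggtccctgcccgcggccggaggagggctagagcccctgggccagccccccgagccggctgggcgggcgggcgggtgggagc
The capitals in ITGA2 are a GC box (GGGGCGGGG), the letters that SP1-family factors recognise, and those in LAMA3 are AP-1 letters (TGANTCA), found at 2 places. The other windows hold no match to these, to the letters of a STAT site (TTCNNNGAA), to E2F letters (TTTCGCGC), to CCAAT or to TATAAA. Both strands were searched and overlapping matches were allowed. Windows were found for 26 of the 36 members, 33 windows in all. AP-1 letters were in 2 of them (6.06%, in LAMA3 and LAMB3) and in 6.57% of all 35116 windows of the same length. STAT letters were in 2 (ITGAE and LAMB2), against 6.57% of all windows. E2F letters were in 0, against 0.439%, and GC boxes in 4 (ITGA2, ITGA6, ITGB5 and LAMA5), against 15.1%. CCAAT was in 5 (15.2%), against 32.0%, and TATAAA in 2, against 10.7%.

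In levels per kilobase of transcript, the common integrin beta chain ITGB1 was far above every other member, at 16415 normalized counts per kilobase in proliferating cells and 19248 with DMSO. The fibronectin receptor chain ITGA5 was next in both groups (3779.8 and 2826), followed in proliferating cells by the laminin chains LAMC1 (2371) and LAMB1 (2079). With DMSO, LAMC1 (2245), ITGB5 (2217), ITGA2 (1997) and LAMB1 (1708) came after ITGA5. The laminin alpha chains were much lower, with LAMA4 the highest at 149 and 225, LAMA2 at 20.7 and 38.0, LAMA5 at 17.3 and 23.9 and LAMA3 at 1.88 and 10.2. Another laminin alpha gene, LAMA1, was not analysed here.

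The 11 members below a mean of 10 were the integrin alpha genes ITGA2B, ITGA9, ITGAD, ITGAL, ITGAM and ITGAX, the integrin beta genes ITGB2, ITGB4 and ITGB6, and the laminin genes LAMB4 and LAMC3. They include the leukocyte integrin chains (ITGAD, ITGAL, ITGAM, ITGAX and ITGB2), the platelet chain ITGA2B and the epithelial chains ITGB4 and ITGB6. The highest value among them was 19.8 normalized counts, for ITGAM in library A123 with ruxolitinib. ITGAX, a chain of myeloid cells, was at 0, 0 and 0.952 in the proliferating libraries, 13.9, 10.7 and 13.9 with DMSO, 2.21, 1.09 and 0.888 with palbociclib and 9.26, 15.3 and 7.22 with ruxolitinib. All DMSO and ruxolitinib libraries lay above the others for ITGAX, at counts too low for a fold. The same held for ITGAM (at least 5.41 against at most 4.43) and, narrowly, for 2 chains not of leukocytes. These were the platelet chain ITGA2B (at least 4.50 against at most 4.44) and the epithelial chain ITGB4 (at least 7.22 against at most 7.11). The leukocyte and Schwann cell marker sums were also highest in those groups, and their part in these values was not tested.

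After irradiation, the members split: 10 of the 25 were higher in Sen_DMSO than in Prolif and 9 were lower (adjusted p under 0.05, limma), while 33.0% and 39.3% of all 11242 tested genes were called higher and lower. The 4 listed laminin alpha genes, the collagen receptor chain ITGA2, LAMB2, ITGA7, ITGB1, ITGB5 and ITGB7 rose. ITGA1, ITGA3, ITGA4, ITGA5, ITGA6, ITGA11, ITGAV, ITGB3 and LAMB1 fell. By class, 2 of 12 tested integrin alpha genes rose and 7 fell, 3 of 5 beta genes rose and 1 fell, and 5 of 8 laminin genes rose and 1 fell. The median log2 fold change was -0.34 for the alpha genes, 0.23 for the beta genes and 0.41 for the laminin genes, against -0.049 over all tested genes. In bulk RNA, a lower share of cells expressing a gene and less RNA per cell cannot be told apart. When all libraries were brought to the same total, the split was 11 higher and 5 lower among the members, against 46.9% and 26.4% of all tested genes. ITGB7 passed the mean of 10 only through the groups where it is high, and without it 9 of 24 members were higher and 9 lower. Called genes ITGA3, ITGA11, ITGAV and LAMB1 lost their call at the same total, and ITGA3 turned positive there and after quantile normalization. The same total also brought the fold change of ITGA5 to -0.19, of ITGA6 to -0.29, of ITGB1 to 0.46 and of LAMB2 to 0.58, all still called, and ITGAE (0.19, adjusted p = 0.038) was then higher. Without A120 and A126, LAMC1 (-0.14, adjusted p = 0.0043) and ITGA10 (-0.36, adjusted p = 0.024) were also lower.

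**Figure D1:**
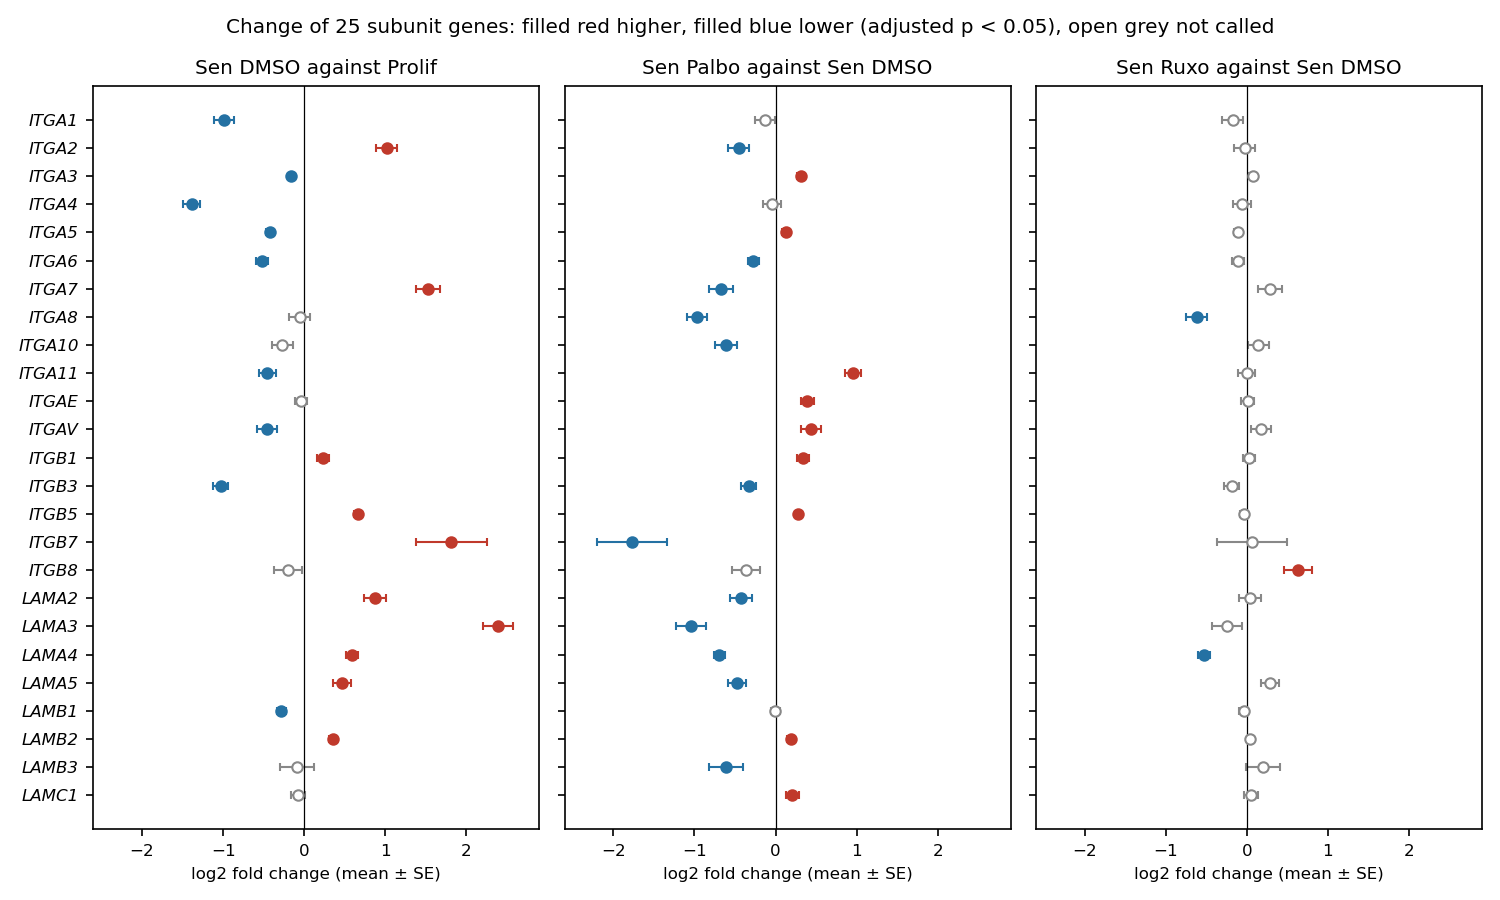
Log2 fold change (points, with the standard error as bars) of the 25 tested members, one row per gene, in Sen_DMSO against Prolif, Sen_Palbo against Sen_DMSO and Sen_Ruxo against Sen_DMSO. Filled red points are called higher, filled blue points are called lower at an adjusted p under 0.05, and open grey points are not called: 10 red and 9 blue in the first panel, 9 and 12 in the second, 1 and 2 in the third.

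With palbociclib, 9 of the 25 members were higher than with DMSO and 12 were lower, while 26.0% and 22.3% of all tested genes were called higher and lower. The collagen receptor chain ITGA11, the beta chains ITGB1 and ITGB5, ITGA3, ITGA5, ITGAE, ITGAV, LAMB2 and LAMC1 were higher. All 4 laminin alpha genes, LAMB3, ITGA2, ITGA6, ITGA7, ITGA8, ITGA10, ITGB3 and ITGB7 were lower. The median over the members was -0.27, against 0.018 over all tested genes. These counts depended on the scaling, because the deposited values of the groups sum to different totals (16554893 ± 192963 with DMSO and 19369896 ± 68982 with palbociclib, SD, n = 3). At the same total, 1 member (ITGA11) was higher and 16 were lower, against 8.36% and 46.0% of all tested genes, and ITGA5, LAMB2 and LAMC1 took a negative sign. The median gene then stood at -0.21 in place of 0.018.

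**Figure D2:**
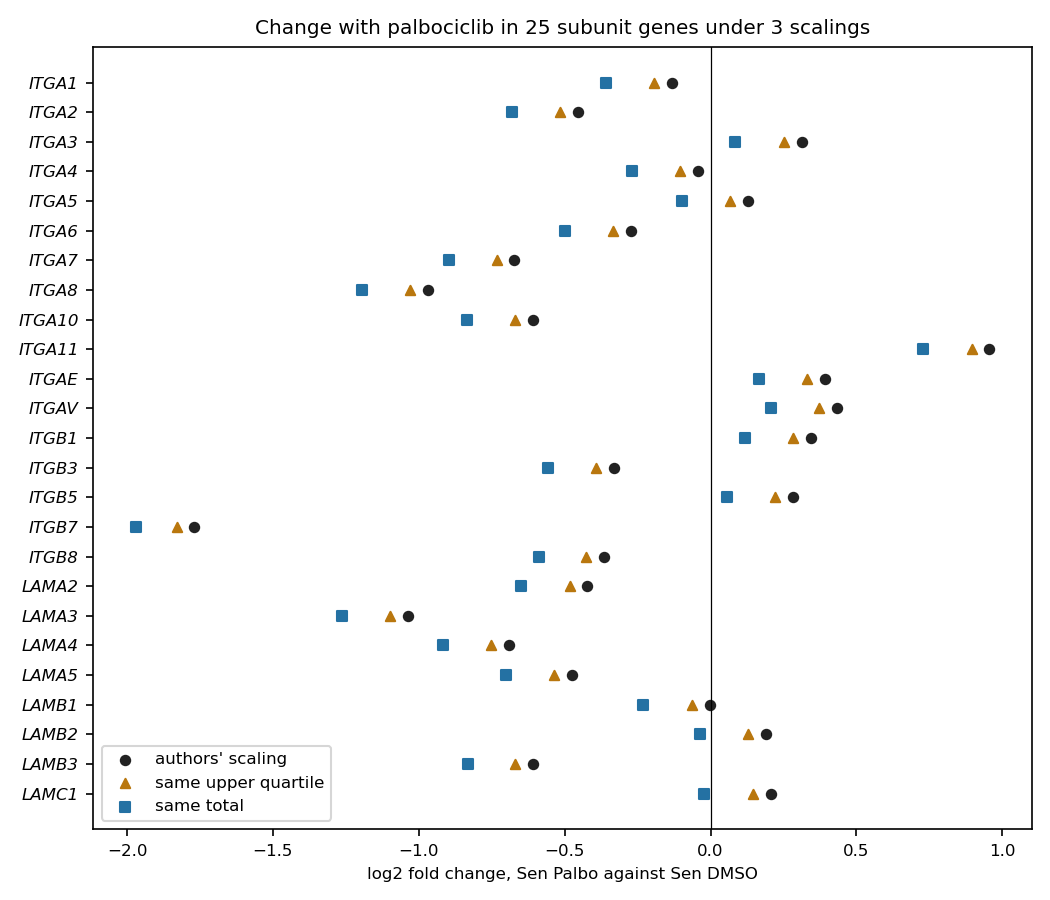
Log2 fold change of the 25 tested members in Sen_Palbo against Sen_DMSO (horizontal axis), one row per gene, with the deposited scaling (circles), the same upper quartile (triangles) and the same total (squares) in every library. ITGA11 is the right-most gene under each scaling (0.96, 0.89 and 0.73), and the 4 laminin alpha genes lie below 0 under each.

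Of the members not called with palbociclib at the deposited scaling, ITGA1 (-0.36, adjusted p = 0.023), ITGA4 (-0.27, adjusted p = 0.037), ITGB8 (-0.59, adjusted p = 0.01) and LAMB1 (-0.23, adjusted p = 0.0031) were lower at the same total. The differences of ITGA6, ITGB3 and LAMA2 became -0.50, -0.56 and -0.65 there. After quantile normalization ITGA2 stood at -0.74, ITGA7 at -0.38 and ITGA10 at -0.35, all called, and LAMB3 (-0.25, adjusted p = 0.35) was not called. With each library's trend on transcript length removed, ITGA6, ITGB3, LAMA2 and LAMA5 were at -0.14, -0.20, -0.26 and -0.30, and ITGA5, LAMB2 and LAMC1 at 0.24, 0.32 and 0.35, all called. LAMB1, lower at the same total, was then called higher (0.12, adjusted p = 0.018). Removing the length trend moved the palbociclib fold change of every tested member upward, for example ITGA11 from 0.96 to 1.12 and ITGA1 from -0.13 to 0.038. Without ITGB7, 9 of 24 members were higher and 11 lower.

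Ruxolitinib changed few members: ITGB8 was higher than with DMSO, ITGA8 and LAMA4 were lower, and 22 were not called. Over all tested genes 1.10% were called higher and 3.42% lower. Leaving out A120 and A126, which are in neither of these groups, did not move the fold changes but brought 5 more members past the threshold, with the adjusted p in parentheses: ITGA1 (0.015), ITGA5 (0.034) and ITGB3 (0.01) as lower, and ITGAV (0.047) and LAMA5 (0.038) as higher. All groups share an estimate of the spread, and the share of all tested genes called in this setting is not given here. These 5 calls are therefore not read as particular to the members. Between the inhibitors, 7 members were higher with palbociclib than with ruxolitinib (22.8% of all tested genes) and 10 were lower (17.6%), or 1 and 14 at the same total (7.53% and 40.3%). ITGA3, ITGA5, ITGA11, ITGAE, ITGB1, ITGB5 and LAMB2 made up the higher ones. ITGA2, ITGA7, ITGA8, ITGA10, ITGB7, ITGB8, LAMA2, LAMA3, LAMA5 and LAMB3 were the lower ones. Without ITGB7, 7 of 24 members were higher and 9 lower. Without A120 and A126, ITGA1, ITGAV, LAMB1 and LAMC1 were also higher and ITGA8 was not called, and at the same total ITGA6, ITGB3, LAMA4 and LAMB1 were also lower. Both inhibitor groups were irradiated and given the same dose on the same days. Against proliferating cells, 10 members were higher with palbociclib (35.2% of all tested genes) and 10 were lower (38.6%), and LAMC1 (0.17, adjusted p = 0.0022) was also higher without A120 and A126. The comparisons share libraries, so they are not independent of each other.

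Among the collagen receptors, the neighbouring genes ITGA1 and ITGA2 went opposite ways after irradiation. ITGA1, which pairs with ITGB1 and prefers basement membrane collagen, was at 10514, 7333 and 10629 in the proliferating libraries, 4686, 4628 and 4819.6 with DMSO, 5136, 3545 and 4369 with palbociclib and 4044, 4309 and 4181 with ruxolitinib normalized counts. Every proliferating library was above every irradiated one, and A126 was the lowest of its group. ITGA1 was 2.01-fold lower with DMSO (log2 fold change -0.99 ± 0.13, adjusted p = 4.0e-06), and its change with palbociclib was -0.13 ± 0.13 (adjusted p = 0.41), or -0.36 at the same total and 0.0081 without A120 and A126, and with ruxolitinib -0.17 ± 0.13 (adjusted p = 0.58). ITGA2, which pairs with ITGB1 and prefers fibrillar collagen, was at 8581, 6068 and 8929 in the proliferating libraries, 15608, 15438 and 15942 with DMSO, 13948, 9277 and 11528 with palbociclib and 15131, 15367 and 15572 with ruxolitinib. All 9 irradiated libraries exceeded the 3 proliferating ones, and the palbociclib libraries were the lowest of the irradiated. ITGA2 rose 1.99-fold with DMSO (log2 fold change 1.02 ± 0.13, adjusted p = 4.5e-06), was lower with palbociclib than with DMSO (-0.45 ± 0.13, adjusted p = 0.011, and -0.30 without A120 and A126), and differed by -0.028 ± 0.13 (adjusted p = 0.96) with ruxolitinib. ITGA1 (chr5:52787916-52959209, GRCh38) and ITGA2 (chr5:52989340-53094779) lie on the same strand with 30.1 kb between them. Exons of the antisense gene ITGA2-AS1 cover 7.47% of the exon bases of ITGA1. On the same strand, PELO, a listed gene with a mean of 1907, shares 2.69% of them and RPL17P21 shares 3.08%.

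ITGA11, a receptor chain for fibrillar collagen that fibroblasts use to tighten collagen gels, had the largest fold increase of the tested members with palbociclib. It was at 2741, 2320.1 and 2921 in the proliferating libraries, 1887, 2003 and 1918 with DMSO, 4311, 3052 and 4019 with palbociclib and 1965, 1876 and 1955 with ruxolitinib normalized counts. The palbociclib libraries were above all others, and the DMSO and ruxolitinib libraries were interleaved and below the proliferating ones. ITGA11 fell with DMSO (-0.45 ± 0.10, adjusted p = 0.001, or -0.22 at the same total, adjusted p = 0.054) and was 1.96-fold higher with palbociclib than with DMSO (log2 fold change 0.96 ± 0.10, adjusted p = 2.6e-06). Ruxolitinib gave -0.0028 ± 0.10 (adjusted p = 0.99), with a 95% interval of -0.22 to 0.22. The remaining collagen-binding chain ITGA10, known from cartilage, was at 154 ± 21.8 (SD, n = 3) in the proliferating group, 127 ± 11.0 in the DMSO group, 82.7 ± 2.25 in the palbociclib group and 141 ± 18.8 in the ruxolitinib group, lower with palbociclib than with DMSO (-0.61 ± 0.13, adjusted p = 0.0013). ITGA11 and ITGA10, both partners of ITGB1, moved in opposite directions with palbociclib.

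The laminin-binding chains ITGA3, ITGA6 and ITGA7 each followed another course. ITGA3 was at 7233 ± 204, 6482 ± 177, 8046 ± 197 and 6826 ± 71.4 normalized counts (SD, n = 3) in the proliferating, DMSO, palbociclib and ruxolitinib groups, with a small fall after irradiation (-0.16 ± 0.044, adjusted p = 0.0044) that turned to 0.071 at the same total. With palbociclib it was higher than with DMSO (0.31 ± 0.044, adjusted p = 3.5e-05), a call lost at the same total (0.085, adjusted p = 0.09). ITGA6, which also pairs with ITGB4 in epithelial hemidesmosomes, was at 4016, 3557 and 4224 in the proliferating libraries, 2767, 2729.9 and 2713 with DMSO, 2504, 2093 and 2219 with palbociclib and 2454, 2644 and 2524 with ruxolitinib. The proliferating libraries were the highest and the palbociclib libraries A120 and A121 the lowest. ITGA6 fell with DMSO (-0.52 ± 0.070, adjusted p = 6.5e-06) and was lower again with palbociclib (-0.27 ± 0.070, adjusted p = 0.0049). ITGA7, the laminin receptor chain of skeletal muscle, was low, at 32.2, 32.2 and 36.2 in the proliferating libraries, 96.0, 101 and 98.3 with DMSO, 70.8, 51.4 and 63.1 with palbociclib and 124, 129.7 and 107 with ruxolitinib. The proliferating libraries were the lowest, the palbociclib libraries came next, and the ruxolitinib libraries were the highest. It rose 2.93-fold with DMSO (log2 fold change 1.53 ± 0.15, adjusted p = 1.4e-07) and was lower with palbociclib than with DMSO (-0.67 ± 0.15, adjusted p = 0.0015).

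The chains that bind fibronectin and vitronectin were led by ITGA5, at 16064 ± 646 normalized counts (SD, n = 3) in the proliferating group, 12009 ± 184 in the DMSO group, 13125 ± 418 in the palbociclib group and 11131 ± 46.6 in the ruxolitinib group. ITGA5 fell after irradiation (-0.42 ± 0.046, adjusted p = 6.1e-07). With palbociclib it was 0.13 ± 0.046 (adjusted p = 0.03) relative to DMSO, a call that was lost without A116, A118, A119 or A121, took the value -0.099 at the same total and was called lower after quantile normalization (-0.21, adjusted p = 0.003). ITGAV, the alpha chain shared by ITGB1, ITGB3, ITGB5, ITGB6 and ITGB8, was at 6613, 4718 and 6970.4 in the proliferating libraries, 4125, 4233 and 4751 with DMSO, 6921, 5136 and 5744 with palbociclib and 4656, 5188 and 4975 with ruxolitinib. Library A126 lay within the range of the DMSO libraries. ITGAV was lower with DMSO than in proliferating cells (-0.46 ± 0.12, adjusted p = 0.0035) and higher with palbociclib than with DMSO (0.43 ± 0.12, adjusted p = 0.0098), and at the same total these were -0.23 (adjusted p = 0.087) and 0.21 (adjusted p = 0.15).

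ITGA8, a partner of ITGB1 found on fibroblasts, smooth muscle and kidney mesenchyme that binds nephronectin and fibronectin, was lower with both inhibitors. Its values were 307, 262 and 311 in the proliferating libraries, 261, 309 and 275 with DMSO, 169, 117 and 147 with palbociclib and 198, 174 and 177 with ruxolitinib. The proliferating and DMSO libraries overlapped, and all 6 inhibitor libraries were below them, the palbociclib libraries lowest. Relative to DMSO, ITGA8 was 1.95-fold lower with palbociclib (log2 fold change -0.97 ± 0.13, adjusted p = 1.7e-05) and 1.54-fold lower with ruxolitinib (log2 fold change -0.62 ± 0.13, adjusted p = 0.0087). The ruxolitinib call was lost without library A117 (-0.55, adjusted p = 0.061) or without A123 (-0.58, adjusted p = 0.051). Cells with DMSO differed from proliferating ones by -0.057 ± 0.13 (adjusted p = 0.69). Palbociclib and ruxolitinib differed by -0.35 ± 0.13 (adjusted p = 0.037), which became -0.21, adjusted p = 0.12 without A120 and A126.

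ITGA4, a chain that binds VCAM1 and fibronectin and is best known from leukocytes, had the largest fall of any tested member after irradiation. It was at 1444, 1163 and 1574 in the proliferating libraries, 526, 532 and 527 with DMSO, 589, 436 and 526 with palbociclib and 501, 502 and 519.7 with ruxolitinib. The proliferating libraries were at least 1163 and the irradiated ones at most 589, the DMSO libraries lay just above the ruxolitinib ones, and the palbociclib libraries overlapped both. ITGA4 was 2.64-fold lower with DMSO (log2 fold change -1.39 ± 0.11, adjusted p = 1.1e-08), and palbociclib gave -0.042 ± 0.11 (adjusted p = 0.77), or -0.27 at the same total, and ruxolitinib -0.057 ± 0.11 (adjusted p = 0.86) relative to DMSO. Exons of CERKL on the opposite strand cover 26.4% of the exon bases of ITGA4, and whether the counting used strand is not given in the sources used here. ITGAE, whose partner is ITGB7 and whose ligand is E-cadherin, was 426 ± 34.8, 413 ± 4.49, 542 ± 31.8 and 416 ± 24.6 in the proliferating, DMSO, palbociclib and ruxolitinib groups (SD, n = 3). It was higher with palbociclib than with DMSO (0.39 ± 0.078, adjusted p = 0.00071), or 0.17 (adjusted p = 0.081) at the same total. Exons of HASPIN on the other strand cover 6.47% of its exon bases.

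The beta chains that pair with ITGAV changed in opposite directions. ITGB3, which with ITGAV forms the vitronectin receptor of bone-resorbing cells, was at 3031, 2330.1 and 2914 in the proliferating libraries, 1402, 1267 and 1359 with DMSO, 1172, 937 and 1105 with palbociclib and 1172, 1176 and 1184 with ruxolitinib. Every proliferating library was above every irradiated one, and the DMSO libraries were the highest of the irradiated. ITGB3 was 2.05-fold lower with DMSO (log2 fold change -1.03 ± 0.093, adjusted p = 6.7e-08) and lower still with palbociclib (-0.33 ± 0.093, adjusted p = 0.0086), and differed by -0.19 ± 0.093 (adjusted p = 0.35) with ruxolitinib. A readthrough gene model on the same strand shares 33.2% of the exon bases of ITGB3, so its reads could be split by the counting. ITGB5, the other vitronectin-binding partner, was at 5883, 6536 and 6217 in the proliferating libraries, 9637, 10170.2 and 9726 with DMSO, 11775, 11766 and 12401 with palbociclib and 9584, 9479.7 and 9660.4 with ruxolitinib. The proliferating libraries were the lowest and the palbociclib libraries the highest, without overlap. ITGB5 rose 1.58-fold with DMSO (log2 fold change 0.67 ± 0.049, adjusted p = 5.7e-09), and it was higher with palbociclib than with DMSO (0.28 ± 0.049, adjusted p = 0.00022), a call lost at the same total (0.057, adjusted p = 0.34).

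ITGB1, the partner of most alpha chains here, was at 62981, 55757 and 65197 in the proliferating libraries, 70860.4, 72339.8 and 72469 with DMSO, 100332, 81888 and 92362 with palbociclib and 73312, 74195 and 72177 with ruxolitinib normalized counts. Palbociclib libraries were the highest and proliferating ones the lowest. ITGB1 rose with DMSO (0.23 ± 0.073, adjusted p = 0.0095) and was higher with palbociclib than with DMSO (0.34 ± 0.073, adjusted p = 0.0013), the latter a call lost at the same total (0.12, adjusted p = 0.16). ITGB8, which with ITGAV activates latent TGF-beta, was at 84.0, 79.9 and 88.6 in the proliferating libraries, 86.1, 63.9 and 71.7 with DMSO, 70.8, 43.8 and 58.6 with palbociclib and 117, 127 and 101 with ruxolitinib. The ruxolitinib libraries were above all others. ITGB8 was higher with ruxolitinib than with DMSO (0.64 ± 0.17, adjusted p = 0.049), just past the threshold, and the call was lost in 14 of 25 alternatives, among them the same total (adjusted p = 0.059) and leaving out A116 (0.75, adjusted p = 0.053), A117, A118, A121, A122, A123, A124, A125 or A127. ITGB7, a leukocyte chain at very low level, was at 5.19, 5.55 and 2.86 in the proliferating libraries, 15.8, 22.5 and 16.2 with DMSO, 4.43, 2.19 and 8.88 with palbociclib and 20.1, 13.5 and 24.4 with ruxolitinib. The DMSO and ruxolitinib libraries were above the others, as they were for the leukocyte and Schwann cell marker sums. The mean of ITGB7 reached 10 only through these groups, so its calls do not support a difference. The DMSO value against proliferating cells was 1.81 ± 0.44 (adjusted p = 0.0015), or 0.49 (adjusted p = 0.34) after quantile normalization, and palbociclib against DMSO gave -1.77 ± 0.44 (adjusted p = 0.0037). ZNF740 exons on the opposite strand cover 42.3% of its exon bases.

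**Figure D3:**
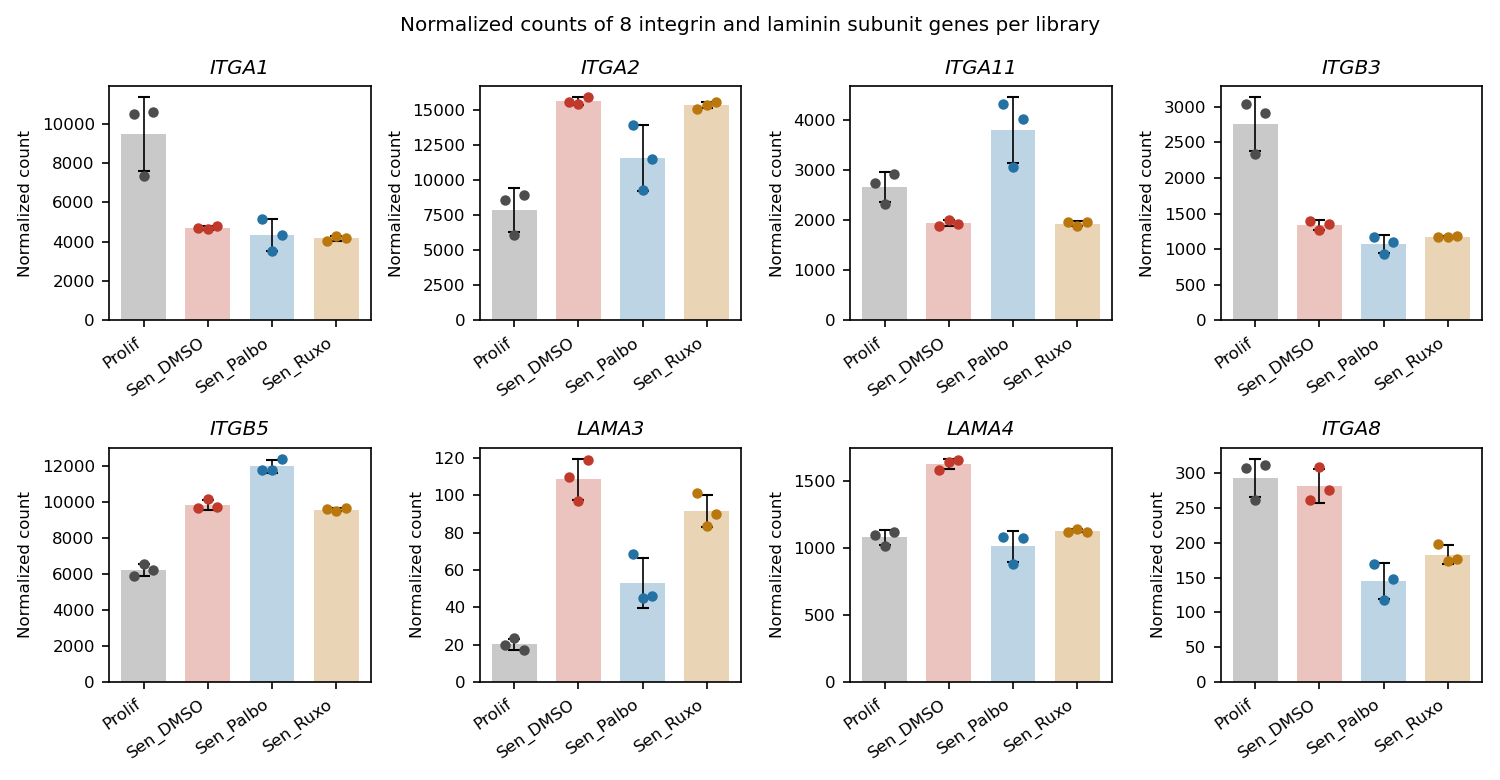
Normalized counts (vertical axes, linear and from 0) of 8 members in each of the 12 libraries. Points are libraries, bars are group means and whiskers are the SD of 3 libraries, for Prolif (grey), Sen_DMSO (red), Sen_Palbo (blue) and Sen_Ruxo (ochre). ITGA1 and ITGB3 are highest in proliferating cells, ITGA2, ITGB5 and LAMA3 are lowest there, ITGA11 is highest with palbociclib, and ITGA8 is lowest there.

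All 4 listed laminin alpha genes were higher with DMSO than in proliferating cells, and all 4 were lower with palbociclib than with DMSO, 2 comparisons that share the DMSO libraries. LAMA3, the alpha chain of the laminin under epithelia, was at 19.7, 23.3 and 17.1 in the proliferating libraries, 109.9, 97.1 and 119 with DMSO, 68.6, 44.9 and 46.2 with palbociclib and 101, 83.7 and 90.2 with ruxolitinib. Every DMSO library was above every palbociclib library, which in turn were above the proliferating ones. LAMA3 rose 5.42-fold with DMSO (log2 fold change 2.39 ± 0.19, adjusted p = 1.2e-08), was 2.04-fold lower with palbociclib than with DMSO (log2 fold change -1.04 ± 0.19, adjusted p = 0.00031) and differed by -0.24 ± 0.19 (adjusted p = 0.6) with ruxolitinib. LAMA4, the alpha chain of vessel-wall and mesenchymal laminin, was at 1099, 1017 and 1123 in the proliferating libraries, 1586, 1639.6 and 1662 with DMSO, 1086, 880.1 and 1073 with palbociclib and 1122, 1141 and 1121 with ruxolitinib. The DMSO libraries stood above all others, and palbociclib and proliferating libraries overlapped. LAMA4 rose 1.51-fold with DMSO (log2 fold change 0.59 ± 0.073, adjusted p = 2.2e-06) and was lower than with DMSO after both palbociclib (log2 fold change -0.69 ± 0.073, adjusted p = 1.8e-06) and ruxolitinib (log2 fold change -0.53 ± 0.073, adjusted p = 0.00027). Both inhibitor results kept their call in every alternative, and the inhibitors differed by -0.16 ± 0.073 (adjusted p = 0.089), with a 95% interval of -0.32 to -0.0067. That difference was called at the same total (-0.36, adjusted p = 0.00064), at the same upper quartile (adjusted p = 0.012), after quantile normalization (adjusted p = 0.028) and with edgeR (adjusted p = 0.047). It was not called with DESeq2 (adjusted p = 0.056). Without A120 and A126 it shrank to -0.063 (adjusted p = 0.33), and with the length trend removed to -0.044 (adjusted p = 0.48). Palbociclib against proliferating cells gave -0.097 ± 0.073 (adjusted p = 0.24).

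LAMA2, the alpha chain of muscle and nerve laminin, was at 213, 185 and 205 in the proliferating libraries, 385, 362 and 358 with DMSO, 319, 203 and 321 with palbociclib and 375, 388 and 374 with ruxolitinib. DMSO and ruxolitinib libraries were the highest, and A120 was low among the palbociclib libraries. LAMA2 rose with DMSO (0.87 ± 0.14, adjusted p = 2.9e-05) and was lower with palbociclib (-0.42 ± 0.14, adjusted p = 0.018), but without A120 the palbociclib value was -0.20, adjusted p = 0.067, and without A116 it was -0.39, adjusted p = 0.063. LAMA5, the alpha chain widespread in adult basement membranes, was at 203, 211 and 180.0 in the proliferating libraries, 288, 263 and 269 with DMSO, 195, 167 and 231 with palbociclib and 346, 317 and 341 with ruxolitinib. The palbociclib and proliferating libraries overlapped, and the ruxolitinib libraries were the highest. LAMA5 rose with DMSO (0.47 ± 0.11, adjusted p = 0.0013) and was lower with palbociclib (-0.48 ± 0.11, adjusted p = 0.0022), while ruxolitinib gave 0.29 ± 0.11 (adjusted p = 0.18). Without A120 and A126 the palbociclib differences were -0.20 for LAMA2, -0.93 for LAMA3, -0.59 for LAMA4 and -0.36 for LAMA5, with adjusted p-values of 0.044, 0.00037, 1.1e-09 and 0.0046.

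LAMB3, a beta chain of the epithelial laminin that holds LAMA3, was not called after irradiation. It was at 66.4, 77.6 and 64.8 in the proliferating libraries, 72.3, 58.0 and 65.9 with DMSO, 42.1, 61.3 and 29.3 with palbociclib and 74.8, 76.5 and 74.0 with ruxolitinib, with DMSO and proliferating libraries overlapping (-0.090 ± 0.21, adjusted p = 0.71). It was lower with palbociclib than with DMSO (-0.61 ± 0.21, adjusted p = 0.025), although the groups overlapped and the call was lost without A116, A118 or A121 (the last giving -0.35, adjusted p = 0.14).

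Of the beta and gamma chains that most laminins share, LAMB1 fell after irradiation, LAMB2 rose and LAMC1 was not called. LAMB1 was 11745 ± 176 in the proliferating group, 9649 ± 192 in the DMSO group, 9649 ± 836 in the palbociclib group and 9379 ± 209 in the ruxolitinib group (SD, n = 3). It fell with DMSO (-0.28 ± 0.056, adjusted p = 0.00031), and its change was -0.054 (adjusted p = 0.4) at the same total. LAMB2, the beta chain of mature muscle and kidney laminins, was 5322 ± 116, 6797 ± 38.6, 7752 ± 236 and 7015 ± 229 in the same order. It rose with DMSO (0.35 ± 0.044, adjusted p = 3.1e-06) and was higher with palbociclib than with DMSO (0.19 ± 0.044, adjusted p = 0.0027), although at the same total the latter was -0.037. LAMC1, the usual gamma chain, was at 19257, 17045 and 20087 in the proliferating libraries, 17492, 17676 and 18239.8 with DMSO, 23168, 17613 and 21189.8 with palbociclib and 18672, 18731 and 18004 with ruxolitinib. Its groups overlapped, and the changes were -0.075 ± 0.082 (adjusted p = 0.42) with DMSO and 0.21 ± 0.082 (adjusted p = 0.049) with palbociclib, a call at the threshold that was lost in 18 of 25 alternatives and turned to -0.021 at the same total. Without A119 it was 0.12, adjusted p = 0.21, and without A120 it was 0.32, adjusted p = 0.00065.

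Ratios of paired genes within a library do not depend on how libraries are scaled. The 2 pairs here were chosen after their values were seen, so they are given as descriptions. Per kilobase of transcript, ITGA2 was 1.12, 1.13 and 1.15 times ITGA1 in the proliferating libraries, 4.56, 4.57 and 4.53 times with DMSO, 3.72, 3.58 and 3.61 times with palbociclib and 5.12, 4.88 and 5.10 times with ruxolitinib. The 4 groups did not overlap, and A120 and A126 lay close to the other libraries of their groups. The ratio of ITGB5 to ITGB3 was 3.07 ± 0.607 (SD, n = 3) in the proliferating group, 9.84 ± 0.804 in the DMSO group, 15.1 ± 1.68 in the palbociclib group and 10.9 ± 0.0840 in the ruxolitinib group. Every palbociclib library was above every other library in this ratio. Libraries A126 (3.75) and A120 (16.8) had the highest ITGB5 to ITGB3 ratio of their groups.

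**Figure D4:**
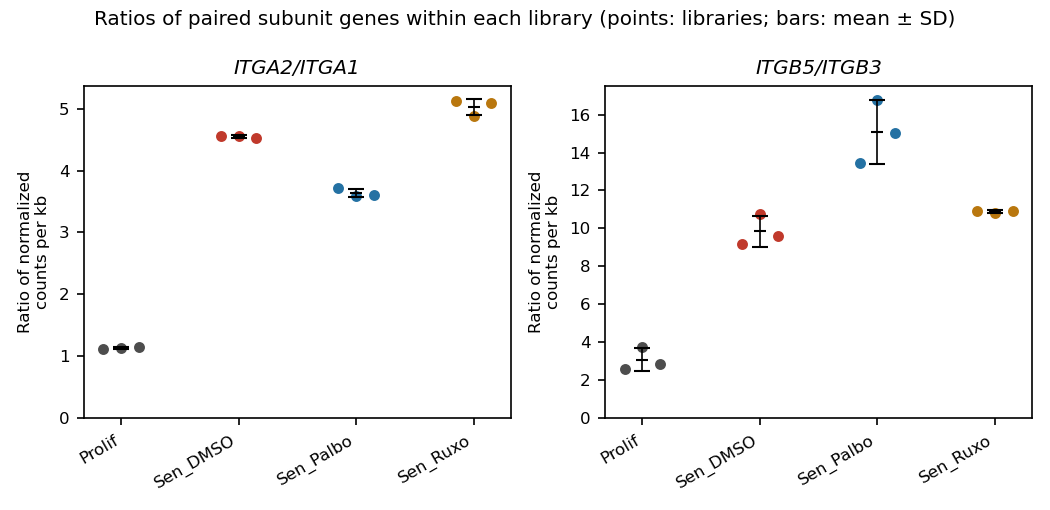
Ratios of ITGA2 to ITGA1 and of ITGB5 to ITGB3, each computed within a library from normalized counts per kilobase (vertical axes, linear and from 0). Points are the 3 libraries of a group and the lines are mean ± SD, and both ratios are lowest in the proliferating group.

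The other genes of the pathway were taken from 3 written lists: integrin activators and focal adhesion proteins, basement membrane and other laminin-binding proteins, and integrin ligands. Of 139 such genes 138 were listed and 131 were tested. After irradiation, 41 were higher and 67 lower in Sen_DMSO than in Prolif (51 and 47 at the same total), while 33.0% and 39.3% of all tested genes were called higher and lower (46.9% and 26.4% at the same total). The median was -0.24, against -0.049 over all tested genes. Among the 50 genes listed as integrin activators and focal adhesion proteins, 10 rose and 27 fell. FLNA, an actin crosslinker that binds integrin tails, went from 117149 ± 12216 to 52238 ± 1347 normalized counts (SD, n = 3), a change of -1.16 ± 0.081 (adjusted p = 3.5e-09). TGFB1I1, the adaptor Hic-5, changed by -1.07 ± 0.055 (adjusted p = 8.4e-11), and ITGB3BP, also a centromere protein, went from 403 ± 10.3 to 80.9 ± 19.5. Of 35 tested basement membrane and laminin-binding genes 12 rose and 18 fell, among them COL15A1 (-2.93 ± 0.068, adjusted p = 1.7e-14), NID1, which links laminin to collagen networks (-2.18 ± 0.074, adjusted p = 6.6e-13), and FBLN1 (-1.95 ± 0.060, adjusted p = 2.4e-13). Of 46 tested ligands 19 rose and 22 fell, with TNC at 44713 ± 7467 in proliferating cells and 9692 ± 43.1 with DMSO (-2.19 ± 0.11, adjusted p = 7.1e-11), COL3A1 at -1.97 ± 0.044 (adjusted p = 1.3e-14) and the adhesion molecule L1CAM higher (2.06 ± 0.11, adjusted p = 1.3e-10).

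With palbociclib, 74 of the 131 pathway genes were higher than with DMSO and 18 were lower, or 43 and 39 at the same total, against 26.0% and 22.3% of all tested genes, or 8.36% and 46.0% at the same total. The median was 0.29, whereas that of the 25 members was -0.27 and that of all tested genes 0.018. At the same total these medians were 0.059, -0.50 and -0.21. The adhesion adaptors LIMS2 (0.89 ± 0.062, adjusted p = 2.1e-08) and PARVG (0.82 ± 0.081, adjusted p = 9.9e-07) and the focal adhesion protein TES (0.75 ± 0.047, adjusted p = 6.2e-09) were higher. COL15A1 was also higher (1.43 ± 0.068, adjusted p = 2.7e-10), while COL4A6, a basement membrane collagen chain, went from 593 ± 29.1 to 234 ± 22.5 (-1.34 ± 0.085, adjusted p = 7.0e-09) and SDC1, a heparan sulfate proteoglycan, was lower (-0.95 ± 0.064, adjusted p = 1.3e-08). POSTN, a ligand of ITGAV integrins, went from 721 ± 6.69 to 135 ± 24.4 (-2.43 ± 0.11, adjusted p = 1.5e-10), while THBS2 (1.52 ± 0.085, adjusted p = 1.7e-09) and COL1A2 (0.88 ± 0.055, adjusted p = 5.6e-09) were higher. With ruxolitinib, 8 of 131 were higher and 4 lower, against 1.10% and 3.42% of all tested genes. COL1A1 (0.48 ± 0.057, adjusted p = 6.3e-05), COL1A2 (0.36 ± 0.055, adjusted p = 0.00075) and COL18A1 (0.30 ± 0.054, adjusted p = 0.0039) were higher, and ICAM1, the ligand of leukocyte integrins, went from 2440.1 ± 207 to 1826 ± 70.4 (-0.42 ± 0.070, adjusted p = 0.002). Between the inhibitors, 72 were higher with palbociclib and 14 lower (22.8% and 17.6% of all tested genes), or 44 and 30 at the same total (7.53% and 40.3%). Against proliferating cells 56 were higher with palbociclib and 45 lower (35.2% and 38.6% of all tested genes).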

How the data were processed

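The members were taken by symbol from a single deposited table, and 1 gene that fits the rule is not reported here. The members, the gene lists and the tests were chosen with earlier results of these data known. The authors deposited normalized counts, a signal of reads divided by 1 factor per library: 160380 of 160380 values above 0 (100%, tolerance 0.01) were whole multiples of what 1 read was worth. In library A116 that worth, 0.990, is too near 1 to show this alone. Per the submitters' processing notes, Trimmomatic 0.38.1, HISAT2 2.2.1, featureCounts 2.0.3 and DESeq2 2.11.40.8 were among the tools and the build was hg38; the annotation and strand setting are not given in the sources used here. The table ended at Entrez gene 140467, and genes with higher numbers were not analysed here. Columns name a group and a library but no replicate. Replicates differed by more than counting noise, and each of the 12 libraries counts as a sample.

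Genes with a mean of at least 10 (11242) were tested with limma 3.58.1 (R 4.3.3) on log2(normalized count + 1), in 1 model of 4 group means over 12 libraries with a trend on the mean, two-sided, with Benjamini-Hochberg adjustment over all tested genes and calls at an adjusted p under 0.05. Fold changes per log2 are on that scale and understate the change of low genes, and folds without a log are ratios of mean normalized counts. Lengths, positions and exon overlaps came from GENCODE 44 (GRCh38). Lengths of members are those of the MANE transcript, and exon overlaps are over the exons of all annotated transcripts. The limma code was tested on simulated data. Every tested member is described with values, and the members below a mean of 10 are named. Of each pathway list, the text names from the up to 3 largest changes per comparison among called genes whose higher group averaged at least 100, not always in full. Alternatives were pseudocounts 0.1 and 5, no filter, a mean of at least 50, 3 other scalings, no trend, a fit of the 2 groups alone, each library left out in turn, and edgeR 4.0.16 (quasi-likelihood, TMM) and DESeq2 1.42.0 on the recovered reads. Leaving out A120 and A126 together, removing each library's trend on transcript length, and the 2 within-library ratios were added after seeing the data.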

Additional observations from a re-analysis of the deposited data

How the results depend on the processing

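Over 80 called member results, 1894 alternative values kept direction and call, 90 lost the call and 13 changed sign. Calls held in every alternative for 14 of 19 members in Sen_DMSO against Prolif, 11 of 21 in Sen_Palbo against Sen_DMSO, 1 of 3 in Sen_Ruxo against Sen_DMSO (LAMA4), 9 of 17 in Sen_Palbo against Sen_Ruxo and 19 of 20 in Sen_Palbo against Prolif. The 11 and the 9 include ITGB7, whose calls do not support a difference and which was not tested with a mean of at least 50. At the same total, 5 members were lower in Sen_DMSO against Prolif, 1 was higher in Sen_Palbo against Sen_DMSO and 1 in Sen_Palbo against Sen_Ruxo, and both of the last comparisons had 2 higher after quantile normalization. For Sen_Ruxo against Sen_DMSO, 0 members were higher with a pseudocount of 0.1, no filter, a mean of at least 50, the same total or no trend, with ITGB8 then missing the threshold; 3 were higher and 6 lower with only the 2 groups, 3 and 5 without A120 and A126, and 0 to 1 higher and 1 to 2 lower when each library was left out. Sen_Palbo against Sen_Ruxo had 11 higher without A120 and A126 and with the length trend removed. With only the 2 groups, 843 of all 11242 tested genes were higher and 998 lower in Sen_Ruxo against Sen_DMSO. With all 12 libraries in the fit these were 124 and 384, so the gain in calls was not particular to the members. Counts over all tested genes without A120 and A126 or with the length trend removed are not given here.

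Of the pathway genes, at the same total 43 were higher and 39 lower in Sen_Palbo against Sen_DMSO, and 44 and 30 in Sen_Palbo against Sen_Ruxo (45 higher after quantile normalization). In Sen_Ruxo against Sen_DMSO, 28 were higher and 18 lower with only the 2 groups, 20 and 14 without A120 and A126, 23 higher with the length trend removed, and 8, 7, 7 and 8 lower at the same total, after quantile normalization, with edgeR and with DESeq2. Leaving out each library gave 3 to 12 higher and 2 to 8 lower. Calls over all tested genes also rose with only the 2 groups, as given above.

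Signs turned at the same total or after quantile normalization as follows. In Sen_DMSO against Prolif, ITGA3 was 0.071 and 0.061. In Sen_Palbo against Sen_DMSO, ITGA5 was -0.099 and -0.21, LAMB2 -0.037 and -0.075, LAMC1 -0.021 and -0.099, and ITGB5 -0.021 after quantile normalization. In Sen_Palbo against Sen_Ruxo, LAMB2 was -0.057 and -0.092, and after quantile normalization ITGA3 was -0.0058 and ITGA5 -0.056. The cause of these changes was not tested beyond the scaling itself. No paired analysis was possible because the columns carry no replicate number. With 3 libraries a group, the precision is that of the spread between libraries.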
